A study of Oncorhynchus mykiss with 6 samples.

Results

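The miR-29 family was examined in small RNA counts from the livers of rainbow trout (Oncorhynchus mykiss), in fish warmed gradually to 24 °C (heat) and in fish kept at 18 °C (control). There were 3 libraries per group, all labelled as liver of fish aged 150 days, and the treatment text describes the fish as female. Temperature is the only difference between the groups that the labels give, and both groups had been acclimated at 18 °C. The labels do not tie libraries to single fish. The p-values below therefore rest on library-to-library spread, part of which may be technical. The family was taken by name as every listed miRNA called miR-29 once its final letter is removed, which gave 2 names, miR-29-x and miR-29-y, of 522 known miRNA names and 2730 names in all. Both passed the filter on low counts, as did 651 names altogether.

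MicroRNAs are short RNAs that guide Argonaute proteins to messenger RNAs, chiefly through pairing of the seed, bases 2 to 8. Each is cut from a hairpin with a 5′ and a 3′ arm, and usually 1 arm is loaded while the other is mostly degraded. In mammals the 3′ arm of miR-29 is the main guide. It represses collagens, elastin, fibrillin and other matrix proteins, and the de novo DNA methyltransferases. In mammalian liver it is known for a decrease in activated hepatic stellate cells during fibrosis. No messenger RNA was measured in the files used here, so no target can be followed.

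The sequences that the files list show which arm each name stands for, so they are given first, with the seed in capitals and T written for U. miR-29-y is 22 bases long and miR-29-x is 23 bases long.
miR-29-y: tAGCACCAtttgaaatcggtta
miR-29-x: aCTGATTTcctctggtgtttaga
The files do not define the letters x and y. Folded against each other with RNAduplex, the pair formed 16 base pairs with an energy of -19.0 kcal/mol, from base 1 to 20 of miR-29-x and base 1 to 21 of miR-29-y, as the arms of a hairpin would. miR-29-y carries the seed of the 3′ guide arm known from mammals. Neither sequence was listed under another name. Whether single reads were counted under several names with similar sequences is not stated in the sources used here.

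A scan of all 1685 distinct sequences for near relatives was added after the values were seen. It found 1 other sequence within 2 edits of miR-29-x and 0 within 2 edits of miR-29-y. The relative of miR-29-x is a predicted miRNA numbered m0738-5p, which differs from it by the substitution T20C, counted from the 5′ end of miR-29-x. It is shown with the changed base in capitals.
m0738-5p: actgatttcctctggtgttCaga
This sequence has the same seed as miR-29-x, and 0.119% of distinct sequences (2 of 1685) carry that seed. It also formed 16 base pairs with miR-29-y at -19.0 kcal/mol. The file lists only this 5p name for that prediction, with no 3p partner. The sources used here do not say how reads close to both sequences were assigned, so the split between miR-29-x and m0738-5p is uncertain.

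The seed of miR-29-y occurs in 3 of 1685 distinct sequences (0.178%). The other two belong to miR-285-y and miR-995-y, names used for insect miRNAs of the same seed family, and are given with the seed in capitals so that the bases after it can be compared.
miR-285-y: tAGCACCAttttaaatcagttc
miR-995-y: tAGCACCAcaggattcagcat
Compared with miR-29-y base by base, miR-285-y carries G12T, G18A and A22C, counted from the 5′ end of miR-29-y. It had 3 counts in heat replicate 1 and 0 in the other 5 libraries. miR-995-y had 22, 33 and 0 counts in heat replicates 1 to 3, against 25, 0 and 2 in control replicates 1 to 3. Together these 2 names hold 85 counts, against 25401 for miR-29-y, so nearly all reads with the miR-29 seed stood under 1 name. The hexamer AGTGTT, known from mammalian miR-29b as a signal for entry into the nucleus, was searched on the listed strand. It is in neither member's listed sequence and in 0.534% of distinct sequences (9 of 1685). Only the listed sequence of each name could be searched. Any other sequence counted under the same name would not be seen.

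miR-29-y, the guide arm, was the more abundant member in all 6 libraries. It was counted 4070, 4316 and 4283 times in heat replicates 1 to 3, against 2277, 7284 and 3171 times in control replicates 1 to 3. Library totals were 9267658 to 12778484, and levels are given below as CPM, the count per 1000000 counts of the library, after TMM normalization, edgeR's scaling for library composition. On that scale miR-29-y stood at 257, 535 and 460 CPM in heat, against 257, 489 and 320 CPM in control. The groups overlapped: heat replicate 1 lay level with the lowest control, and control replicate 2 lay above 2 of 3 heat libraries.

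Mean levels of miR-29-y were 417 ± 144 CPM in heat and 355 ± 120 CPM in control (SD, n = 3 each). The fitted log2 fold change was 0.23 ± 0.36 (SE, 95% interval -0.60 to 1.07), and miR-29-y did not pass edgeR's quasi-likelihood test over 651 names (adjusted p = 0.995). The interval reaches from 0.659-fold to 2.09-fold. It leaves out values below 0.659-fold and above 2.09-fold, and nothing between them. Without control replicate 1 the log2 value was 0.017, without heat replicate 2 it was 0.057, and leaving out control replicate 2 gave 0.54 and heat replicate 1 gave 0.51.

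miR-29-x, the 5′ arm, was counted 873, 1335 and 1381 times in heat replicates 1 to 3, against 589, 539 and 1247 times in control replicates 1 to 3. These counts correspond to 55.1, 166 and 148 CPM in heat, against 66.4, 36.2 and 126 CPM in control. Heat replicates 2 and 3 were the highest libraries, and heat replicate 1 was the lowest but one, above control replicate 2 alone.

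Mean levels of miR-29-x were 123 ± 59.4 CPM in heat and 76.2 ± 45.7 CPM in control (SD, n = 3 each). The fitted log2 fold change was 0.69 ± 0.55 (SE, 95% interval -0.59 to 1.97), or 1.61-fold, and it did not pass either (edgeR adjusted p = 0.995). Without control replicate 3 it was 1.32, and without control replicate 2 it was 0.36. It was 1.06 without heat replicate 1 and 0.46 without heat replicate 2, so single libraries of both groups moved the value by over 1.5 times. Unadjusted p-values were 0.247 for miR-29-x and 0.539 for miR-29-y.

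**Figure D1:**
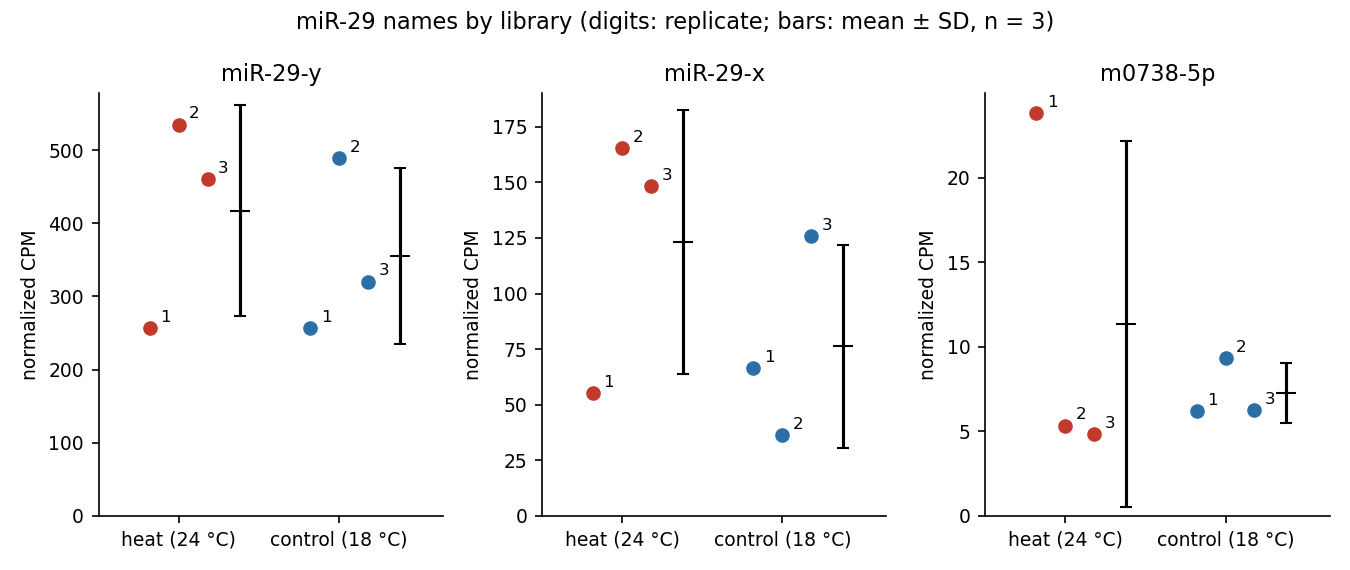
Normalized CPM (linear axes starting at 0) of miR-29-y, miR-29-x and the near-identical m0738-5p in each of the 3 heat and 3 control libraries, with digits for the replicate and black bars for mean ± SD. The groups overlap for all 3 names, and m0738-5p stands at 23.8 CPM in heat replicate 1 against 4.84 to 9.34 CPM in the other 5 libraries.

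Called names were 0 of the 651 tested (percentage called: 0), with 20 names (3.07%) at an unadjusted p under 0.05. DESeq2, run without this count filter on 2724 names, called 2 names. The miR-29 names are 2 of the 651 that edgeR did not call. Fitted values above 0 are those of the minority among known names, of which 35.3% (88 of 249) had one, against 47.2% of all 651 names, and the median over known names was -0.12 in log2. Groups that did not overlap were found for 8.29% of the 651 names. Neither member was among them.

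In a fit on 404 families and predicted sequences, with its own TMM factors, the summed family had 325, 696 and 606 CPM in heat, against 317, 531 and 439 CPM in control. Heat replicates 2 and 3 were the highest libraries on this scale, and heat replicate 1 lay beside the lowest control. The log2 fold change of the family was 0.34 ± 0.35 (SE, 95% interval -0.46 to 1.14; edgeR adjusted p = 0.999, 0 of 404 units called, 0%). Without heat replicate 2 the value was 0.07, without control replicate 1 it was 0.13, and without heat replicate 1 it was 0.56.

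As a share of all counts, the family took 0.0387%, 0.0610% and 0.0553% in heat, against 0.0296%, 0.0658% and 0.0397% in control. The mean was 0.0516% ± 0.0116 in heat and 0.0450% ± 0.0187 in control (SD, n = 3 each; two-sided exact permutation p = 0.8, and adjusted p = 1 over the 4 exact tests of arm balance and share). An exact test of 3 libraries against 3 cannot give a p under 0.1. By share, control replicate 1 was the lowest library and control replicate 2 the highest. The difference between the means, 0.0066 percentage points, became -0.0011 without control replicate 1 and 0.0170 without control replicate 2. Counting error was small beside the spread between libraries. The exact binomial 95% interval for the family's share ran from 285 to 307 CPM of the library total in control replicate 1. In control replicate 2 it ran from 643 to 672 CPM of the library total. Such intervals cover counting error only, as PCR copies of a molecule cannot be recognised in these reads.

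The spread between libraries set the precision for both names. Counting alone would give a coefficient of variation of 2.69% to 4.31% for miR-29-x and 1.17% to 2.10% for miR-29-y. The observed coefficient was 48.3% in heat and 59.9% in control for miR-29-x, and 34.5% in heat and 33.8% in control for miR-29-y. Across the 6 libraries the highest level of miR-29-x was 4.57 times the lowest, and that of miR-29-y was 2.09 times the lowest. Among 114 known names above a log2 CPM of 6, whose median SE was 0.31, miR-29-x had the tenth largest SE and miR-29-y stood at place 36.

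**Figure D2:**
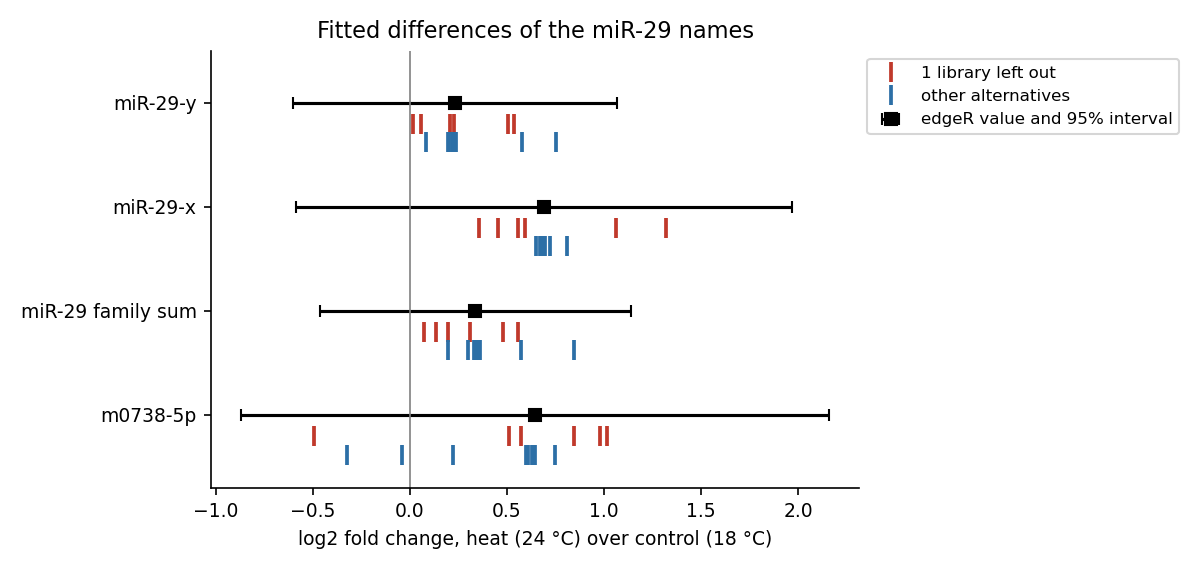
Fitted log2 fold changes of heat over control for both names, their sum and m0738-5p: black squares with 95% intervals from edgeR, red ticks with 1 library left out, blue ticks for the other alternatives. All 4 intervals include 0, and all ticks of the first 3 rows lie above 0, from 0.017 for miR-29-y to 1.32 for miR-29-x.

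Relative to other liver miRNAs both members lay in the upper part of the known names tested, well below the most abundant. By average level miR-29-y was at place 70 and miR-29-x at place 103 of 249 known names tested. Ranks within single libraries need no scaling and were taken among all 522 known names, tested or not. On them miR-29-y ranked 74, 58 and 60 in heat, against 73, 65 and 71 in control. miR-29-x ranked 120, 83 and 88 in heat, against 110, 135 and 92 in control. The rank of both names thus overlapped between the groups as the levels did.

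The names next in level to miR-29-y were miR-101-x, the 5′ arm of a miRNA rich in liver, and miR-192-y, the 3′ arm of a hepatocyte-enriched miRNA. miR-101-x had 374 ± 13.0 CPM in heat and 413 ± 96.4 CPM in control, and miR-192-y had 296 ± 39.8 CPM in heat and 324 ± 41.7 CPM in control (SD, n = 3 each). Next to miR-29-x stood miR-125-y, at 92.8 ± 25.2 CPM in heat and 108 ± 31.1 CPM in control, and miR-7-x, at 79.5 ± 13.5 CPM in heat and 115 ± 62.8 CPM in control (SD, n = 3 each). None of these neighbours differed in mean from its miR-29 name by more than the larger of the 2 SDs in either group. They were chosen by their level in these same libraries, so this closeness follows largely from the choice.

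The balance of the arms varied more between control libraries than between temperatures. For each count of miR-29-x there were 4.66, 3.23 and 3.10 counts of miR-29-y in heat, against 3.87, 13.5 and 2.54 in control. Control replicate 2 thus stood apart, with miR-29-y at 93.1% of the family's counts (exact binomial 95% interval 92.5% to 93.7%), against 71.8% to 82.3% in the other 5 libraries. That library combined the lowest level of miR-29-x with the second highest of miR-29-y.

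On the log2 scale the ratio of miR-29-y to miR-29-x averaged 1.85 ± 0.32 in heat and 2.35 ± 1.25 in control (SD, n = 3 each), a difference of -0.50 (two-sided exact permutation p = 0.8, adjusted p = 1). Without control replicate 2 the difference was 0.20, of the other sign. Over 73 families with both an x and a y name tested and counted in every library, 5.48% (4 of 73) had groups that did not overlap in this ratio, and miR-29 was not among them. The median size of the difference over the other 72 families was 0.28 in log2.

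Control replicate 2 also stood apart in other families. Its log2 ratio of y to x counts lay 2.06 above the median of the other 5 libraries for miR-29, and 11 of the other 72 families deviated further in that library in either direction. The median size of the deviation over the other 72 families was 0.75 in control replicate 2, against 0.68 in heat replicate 1 and 0.32 to 0.52 in the remaining libraries. Of the 73 families, 27 had their highest ratio in control replicate 2 and 19 their lowest. In each of the other 5 libraries 3 to 12 families had their highest ratio and 6 to 18 their lowest, with 18 lowest in control replicate 3.

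**Figure D3:**
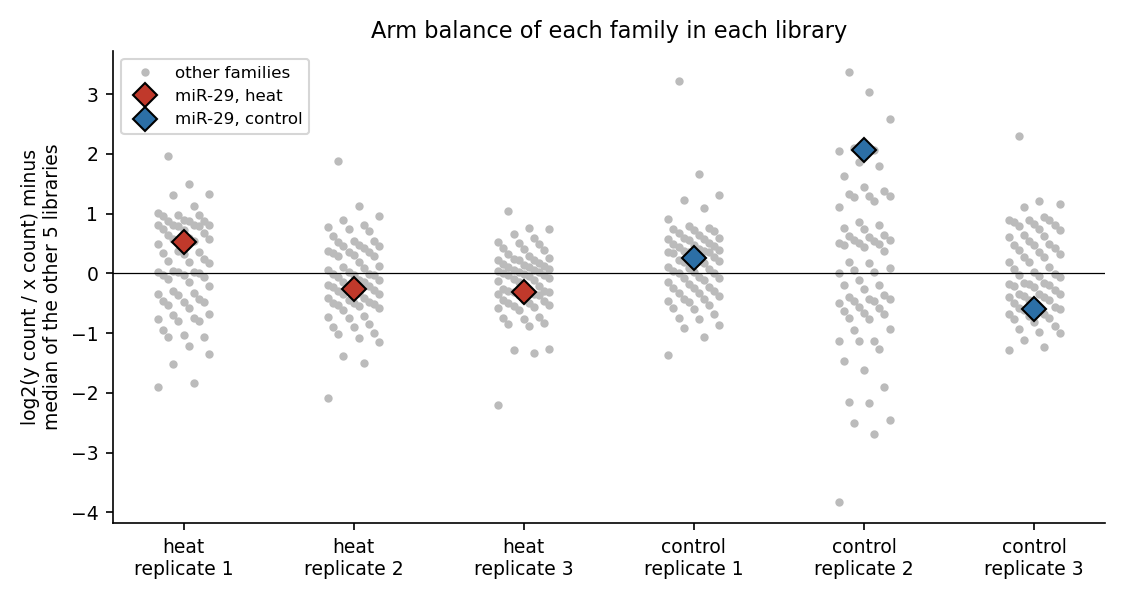
Deviation of the log2 ratio of y to x counts in each library from the median of the other 5 libraries, with diamonds for miR-29 and grey points for the other 72 families. The diamond of control replicate 2 lies at 2.06, and those of the other 5 libraries between -0.60 and 0.53.

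m0738-5p, the near-identical sequence, was counted 377, 43 and 45 times in heat replicates 1 to 3, against 55, 139 and 62 times in control replicates 1 to 3. At 23.8 CPM, heat replicate 1 was far above all others. The next was control replicate 2 at 9.34 CPM, and these were the 2 libraries with the lowest miR-29-x after TMM normalization. By share of all counts, miR-29-x was lowest in control replicates 2 and 1 (0.00453% and 0.00608%), with 0.00683% in heat replicate 1. Of the counts of both 5′ sequences together, m0738-5p took 30.2%, 3.12% and 3.16% in heat, against 8.54%, 20.5% and 4.74% in control (exact permutation p = 1, adjusted p = 1). The exact binomial 95% interval was 27.6% to 32.8% in heat replicate 1 and 17.5% to 23.7% in control replicate 2, so both lay above the other 4 libraries by more than counting error.

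Its fitted log2 fold change was 0.65 ± 0.66 (SE, 95% interval -0.87 to 2.16; edgeR adjusted p = 0.995). Without heat replicate 1 the value was -0.49, so its sign rested on that library. With its counts added to miR-29-x, the ratio of miR-29-y to the 5′ arm became 3.26, 3.13 and 3.00 in heat, against 3.54, 10.7 and 2.42 in control. The SD in log2 was then 0.058 in heat (0.32 without these counts) and 1.12 in control (1.25 without them). In heat, most of the added counts were those of replicate 1 (377, against 43 and 45 in replicates 2 and 3). Control replicate 2 still stood apart (difference between the groups -0.53, exact permutation p = 0.7, adjusted p = 1).

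A relation between the levels of the 2 arms over the 6 libraries did not pass its test. Pearson's r of the log2 CPM values was 0.315 (exact permutation p = 0.528) and Spearman's rho 0.371 (exact permutation p = 0.497), the only such relation tested. Leaving out control replicate 2 and heat replicate 2, the libraries farthest from the median log2 CPM of miR-29-x (-1.34 and 0.86, with heat replicate 1 at -0.73), gave r = 0.899 over the remaining 4, too few for a test.

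Over the 6 libraries, miR-10-x had the log2 CPM profile most like miR-29-x (r = 0.965 among 241 known names counted in every library), followed by miR-10926-x (r = 0.925) and miR-222-y (r = 0.920). miR-10-x stood at 874, 1360 and 1480 CPM in heat, against 1061, 827 and 1226 CPM in control. For miR-29-y the most alike were miR-148-y (r = 0.893), miR-143-y (r = 0.833) and miR-27-x (r = 0.827). miR-148-y, the guide arm of a hepatic miRNA, stood at 10578, 20118 and 21330 CPM in heat, against 13157, 29669 and 13364 CPM in control. The points are 6 libraries that share their scaling factors, and with so few points the highest r among many names is high by selection, so these values are descriptions.

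Bulk liver holds several cell types, and fewer cells of a type cannot be told apart from less miRNA per cell. Markers of the other cell types therefore stand beside the miR-29 values here, and their part in them was not tested. In no list was a name at 0 in all libraries. The hepatocyte list (miR-122, miR-192, miR-194, miR-148 and miR-101, 11 names) summed to 254768 to 393516 CPM in heat and 238100 to 396484 CPM in control. The stromal and vascular list (miR-199, miR-214, miR-143, miR-145 and miR-126, 10 names) summed to 109240 to 180532 CPM in heat and 105280 to 182468 CPM in control. Both sums were lowest in control replicate 2 and heat replicate 1, as miR-29-x was after TMM normalization, though not by share of counts. Both lists moved almost alike from library to library, so they did not give separate readings of cell content. Their most abundant names, miR-122-x (147681 CPM in control replicate 2) and miR-199-x (39466 CPM there), were lowest in the same libraries. Not all names of the lists went this way. In control replicate 2, miR-148-y (29669 CPM) and miR-143-y (21576.5 CPM) were at their highest, and miR-101-y was highest in heat replicate 1 (15012 CPM).

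The leukocyte list (11 names, 8 tested) summed to 16767 to 18605 CPM in heat and 16856 to 32592 CPM in control, and the pancreas list (5 names, 4 tested) to 184 to 291 CPM in heat and 150 to 346 CPM in control. Both sums were highest in control replicate 2, where miR-29-y was also high and miR-29-x lowest. In that library miR-146-x made up 30042 CPM of the leukocyte sum, and miR-216-x 193 CPM of the pancreas sum. The names of a list did not all rise there. miR-142-x was highest in control replicate 1 (2553 CPM, against 2183 CPM in control replicate 2). miR-375-y was highest in heat replicate 3 (194 CPM, against 105 CPM in control replicate 2). Among known names the median fitted value was -0.12, and 35.3% (88 of 249) were above 0. Fitted values were below 0 for 8 of 8 tested leukocyte names (median -0.45 in log2) and 10 of 11 hepatocyte names (median -0.11). They were below 0 for 4 of 10 stromal and vascular names (median 0.034), 3 of 5 erythrocyte names (median -0.081) and 2 of 4 pancreas names (median -0.22). Over 16 alternatives the medians ran from -0.68 (without heat replicate 1) to -0.20 (without heat replicate 2) for leukocyte names, and those of stromal (-0.048 to 0.061), erythrocyte (-0.22 to 0.16) and pancreas names (-2.02 to 0.12) took both signs. None of these names was called by edgeR in the fit on all libraries. The erythrocyte list (5 names) summed to 4228 to 5844 CPM in heat and 3894 to 6704 CPM in control. This sum too was highest in control replicate 2, as miR-451-x was (5369 CPM), whereas miR-144-y was highest in heat replicate 3 (1757 CPM). TMM factors were 1.24 in heat replicate 1 and 1.25 in control replicate 2, against 0.870 to 0.916 elsewhere, so these libraries differ in composition and lower normalized values follow for any miRNA with an unchanged share of counts.

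**Figure D4:**
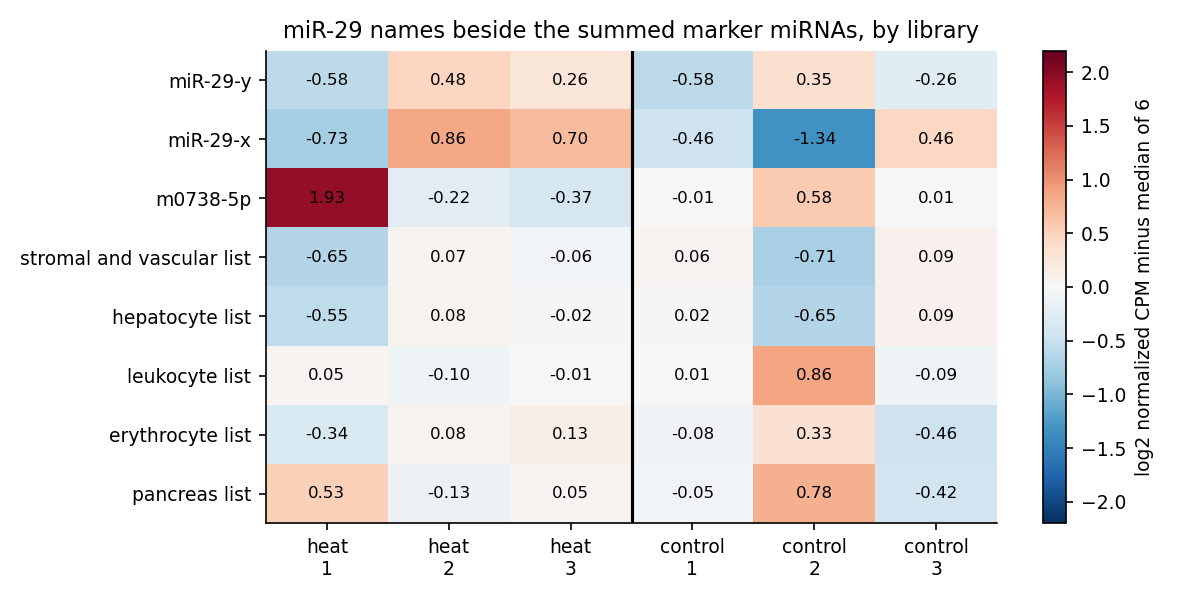
Log2 of each normalized level minus the median log2 level of the 6 libraries, for the miR-29 names, m0738-5p and the summed counts of 5 marker lists, with heat libraries left of control libraries. miR-29-x is lowest in control replicate 2 (-1.34) and heat replicate 1 (-0.73), where the hepatocyte list stands at -0.65 and -0.55 and the stromal list at -0.71 and -0.65.

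Set against a hepatocyte miRNA within the same library, which needs no scaling, miR-29-y measured 1.38, 1.81 and 1.68 counts per 1000 counts of miR-122-x in heat, against 0.868, 3.31 and 0.997 in control. miR-29-x measured 0.295, 0.560 and 0.542 in heat, against 0.225, 0.245 and 0.392 in control. Per 1000 counts of miR-199-x, a miRNA of stellate and other mesenchymal cells, miR-29-y measured 4.49, 4.99 and 4.74 in heat, against 2.23, 12.4 and 2.88 in control, and miR-29-x 0.964, 1.54 and 1.53 in heat, against 0.577, 0.917 and 1.13 in control. All 4 ratios overlapped between the groups. In each ratio with miR-29-y, control replicate 2 was the highest library and the other 2 controls were the lowest. Both reference miRNAs had their lowest normalized level in control replicate 2 (miR-122-x 147681 CPM, miR-199-x 39466 CPM), which raises these ratios. There miR-29-y itself (489 CPM) lay below heat replicate 2 (535 CPM) after normalization, though it was highest by share of counts.

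Other miRNAs linked to fibrosis and matrix in mammals formed a list of 12 families: miR-21, miR-199, miR-214, miR-30, miR-133, miR-101, miR-200, miR-192, miR-34, miR-181, miR-26 and miR-19. Of all 651 names, 0 passed the edgeR test and 20 (3.07%) had an unadjusted p under 0.05. Of the 25 tested names in this list, 0 passed in either direction, and 0 had an unadjusted p under 0.05. Fitted values were above 0 for 9 names and below 0 for 16, with a median log2 fold change of -0.12, equal to that of all known names. Its most abundant names were miR-199-x, at 87193 ± 26476 CPM in heat and 88506 ± 42516 CPM in control, and miR-26-x, at 65627 ± 13082 CPM in heat and 52409 ± 26350 CPM in control (SD, n = 3 each). Neither separated the groups.

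miRNAs that share a DNA methyltransferase target or a p53 link with miR-29 in mammals (miR-148, miR-152, miR-34, miR-101, miR-15 and miR-16) gave 11 tested names, of which 0 passed in either direction and 0 had an unadjusted p under 0.05. Over all 651 names, 0 passed the edgeR test and 3.07% had an unadjusted p under 0.05. Fitted values were above 0 for 1 name of this list and below 0 for 10, with a median of -0.10. Among known names, 35.3% (88 of 249) had a value above 0. miR-148-y had 17342 ± 5889 CPM in heat and 18730 ± 9474 CPM in control, and miR-101-y, the guide arm of miR-101, had 10051 ± 4332 CPM in heat and 10781 ± 4208 CPM in control (SD, n = 3 each). Neither separated the groups.

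The most abundant names of the cell type lists gave no call either (edgeR adjusted p of 0.948 or higher for each). miR-122-x, the main hepatocyte miRNA, had 252006 ± 57430 CPM in heat and 254827 ± 93674 CPM in control, and miR-192-x had 50460 ± 14258 CPM in heat and 44247 ± 4828 CPM in control. For the endothelial miR-126-y the levels were 30813 ± 8892 CPM in heat and 29853 ± 10128 CPM in control. Among leukocyte names, miR-146-x had 15960 ± 315 CPM in heat and 20176 ± 8547 CPM in control, and miR-142-x had 1467 ± 807 CPM in heat and 1944 ± 758 CPM in control. The erythroid miR-451-x had 3484 ± 888 CPM in heat and 3906 ± 1303 CPM in control, and miR-144-y had 1664 ± 114 CPM in heat and 1198 ± 264 CPM in control. The islet miR-375-y had 161 ± 29.2 CPM in heat and 105 ± 6.0 CPM in control, and the acinar miR-216-x had 61.6 ± 64.2 CPM in heat and 104 ± 81.2 CPM in control (SD, n = 3 each). Of these names, miR-144-y and miR-375-y had heat libraries wholly above the controls, where 8.29% of all 651 names had groups that did not overlap.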

How the data were processed

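Mature miRNAs were counted in 6 liver libraries, 3 from heat and 3 from control, grouped and numbered by their labels. Per the file headers, each deposited table gives a name, its length, its sequence, a count for 1 library, a TPM value and a total over the libraries. The count column, whole numbers deposited by the authors, was used as it stands. The TPM column and the total were not used. Aligner, miRNA database, genome build and prediction tool: not given in the sources used here. A protocol text in the labels speaks of retina and of fragmented, rRNA-depleted RNA, and so does not describe these libraries. No genome was used here, so positions were not determined.

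The test was edgeR 4.0.16 under R 4.3.3 (names kept by filterByExpr at a minimum count of 10, TMM, robust quasi-likelihood test of heat over control, Benjamini-Hochberg adjustment over all names, threshold 0.05). An SE is the log2 fold change divided by the root of F, and 95% intervals use the fitted degrees of freedom. For the family as 1 unit, known names were added up by family and every predicted sequence entered 1 time. Arm ratios and shares were compared with two-sided exact permutation tests (scipy 1.17.1). Duplexes were folded with ViennaRNA 2.7.2, and figures drawn with matplotlib 3.10.9. The fit was also run on counts simulated from its own estimated spreads. That run checks the calculation only and does not show what size of change these libraries could reveal.

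Named were the family, other sequences with the seed of miR-29-y, the 3 known names most alike to each member, the neighbours in level and the 2 most abundant names of each list. The members and lists were chosen with earlier results of these data known. Alternatives were DESeq2 1.42.0 size factors and Wald test, library totals alone, no count filter, a minimum count of 20, libraries left out, a replicate block, each sequence counted once and no robust estimation. Chosen after seeing the data were limma 3.58.1 voom with library quality weights and the handling of m0738-5p.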

Additional observations from a re-analysis of the deposited data

How the results depend on the processing

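Both arms and their sum kept a log2 fold change above 0 and stayed short of the threshold in all alternatives run: 0.36 to 1.32 over 16 settings for miR-29-x, 0.017 to 0.76 over 16 for miR-29-y and 0.074 to 0.85 over 17 for the sum. The highest values of miR-29-y and the sum came without control replicate 2 and heat replicate 1 together (unadjusted p = 0.0177 and 0.0124, edgeR adjusted p = 0.531 and 0.440). For both, control replicate 2 was the highest control and heat replicate 1 the lowest heat library. Leaving out this pair raises the value by construction, so these p-values are no support for a difference. Library totals alone gave 0.67, 0.086 and 0.20 for miR-29-x, miR-29-y and the sum. With 1 library left out the ranges were 0.36 to 1.32 (adjusted p = 0.639 to 1.00), 0.017 to 0.54 (0.834 to 1.00) and 0.074 to 0.56 (0.962 to 0.999).

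The number of names called was 0 in edgeR and stayed 0 in 14 of 16 settings, including each library left out. It was 2 with the DESeq2 Wald test (2724 names) and 23 without a count filter (2730 names). Neither member was called in any setting. The cause was not tested. Few libraries and wide spreads limit what could be seen: the interval of miR-29-x includes both no change and a rise above 3-fold.

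The arm ratio difference ran from -1.0 to 0.20 with 1 library left out, and was 0.20 without control replicate 2 and 0.014 without control replicate 2 and heat replicate 1 together, both of the other sign. The difference in the family's share of counts ran from -0.0011 to 0.0170 percentage points, the lowest without control replicate 1. m0738-5p gave -0.49 in log2 without heat replicate 1, -0.33 without control replicate 2 and heat replicate 1 together, and -0.038 with quality weights. Over the libraries left out it ran from -0.49 to 1.02.

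Correlations of deviations between libraries of the same replicate number were 0.106, -0.202 and 0.116. With no values for libraries of different numbers beside them, they cannot show whether libraries were paired. The replicate block gave log2 fold changes of 0.69 for miR-29-x, 0.22 for miR-29-y and 0.30 for the sum, with 0 names called, and an exact sign-flip p of 1 for the arm ratio difference of -0.50, where 3 pairs cannot give a p under 0.25.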
